A study of Phycomyces blakesleeanus with 24 samples.

Results

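MadB, WctB, WctC and WctD are the genes of Phycomyces blakesleeanus that bear the names of White Collar 2 relatives. They were chosen by symbol in the RefSeq gene table of assembly Phybl2, in which they are PHYBLDRAFT_77137, PHYBLDRAFT_179643, PHYBLDRAFT_65293 and PHYBLDRAFT_85757. These 4 genes of 14490 listed in any deposited table were present in all 4 light against dark tables. White Collar proteins are the light-responsive transcription factors of fungi. In Neurospora crassa, White Collar 1 carries the blue-light sensing domain, White Collar 2 is its zinc finger partner, and the complex of both binds the promoters of light-induced genes. In Phycomyces, MadA, a White Collar 1 protein, and MadB, a White Collar 2 protein, are needed for the bending of the sporangiophore (the aerial stalk that carries the spores) towards light and for other light responses. WctB, WctC and WctD are further White Collar 2 relatives whose roles are less well known.

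RNA was sequenced from 24 libraries in 8 groups, which were mycelium or sporangiophores of the wild type or of ΔL51, grown on potato dextrose agar (PDA) in darkness or in light. The labels call ΔL51 a photoreceptors mutant without naming its alleles. Strain L51 is known as a madA madB double mutant, so that 1 of the genes described here is itself thought to be mutated in it, and whether its transcript is altered cannot be read from a fold. The labels give no age, light intensity or exposure time. After the authors set 4 libraries aside for their greater dispersion, wild type mycelium had 2 dark and 3 light libraries, wild type sporangiophores 2 and 2, mutant mycelium 3 and 3, and mutant sporangiophores 2 and 3. Setting libraries aside by their spread narrows the spread that the tests see. For each comparison the authors gave every gene a log2 fold change, an average log2 CPM (counts scaled to library size, averaged over the libraries of the fit), and the likelihood ratio, p-value and FDR of their edgeR test. Counts of single libraries were not analysed here. The depth is therefore unknown, and no spread between replicates can be shown. Intervals given below are approximate 95% intervals, from a standard error taken as the size of the log2 fold change over the square root of its likelihood ratio. A positive fold is taken to mean more RNA in light, because each table's title puts light before dark.

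The folds of the White Collar 2 genes covered a wide range. WctD and WctB had large folds in wild type mycelium, MadB and WctC smaller ones, and MadB was the gene of the family called in sporangiophores, higher in light in the wild type and lower in the mutant. In wild type mycelium all 4 were called higher and 0 lower at an FDR under 0.05, where 9.86% of all genes in the authors' deposited table were called higher and 4.18% lower. In wild type sporangiophores 1 was called higher and 0 lower, against 7.23% and 1.18% of all genes in the authors' deposited table. In mutant mycelium 0 were called by the authors' edgeR test, against 0.541% higher and 0.576% lower of all genes in the authors' deposited table, and WctD was the 1 member whose unadjusted p was under 0.05. In mutant sporangiophores 0 were called higher and 1 lower, against 3.31% and 12.3% of all genes in the authors' deposited table. Over the 4 genes, the log2 fold changes had medians of 3.95, 0.35, 0.16 and -0.06 in that order, and the median of all genes was 0, -0.05, 0 and 0.05. These medians and the shares called count genes whose fold is listed as exactly 0, of which there were 3193, 9, 2793 and 0. Without them the medians were 0.39, -0.05, 0.08 and 0.05. The shares called higher and lower were then 12.7% and 5.38% in wild type mycelium and 7.24% and 1.18% in wild type sporangiophores. They were 0.673% and 0.716% in mutant mycelium and 3.31% and 12.3% in mutant sporangiophores.

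**Figure D1:**
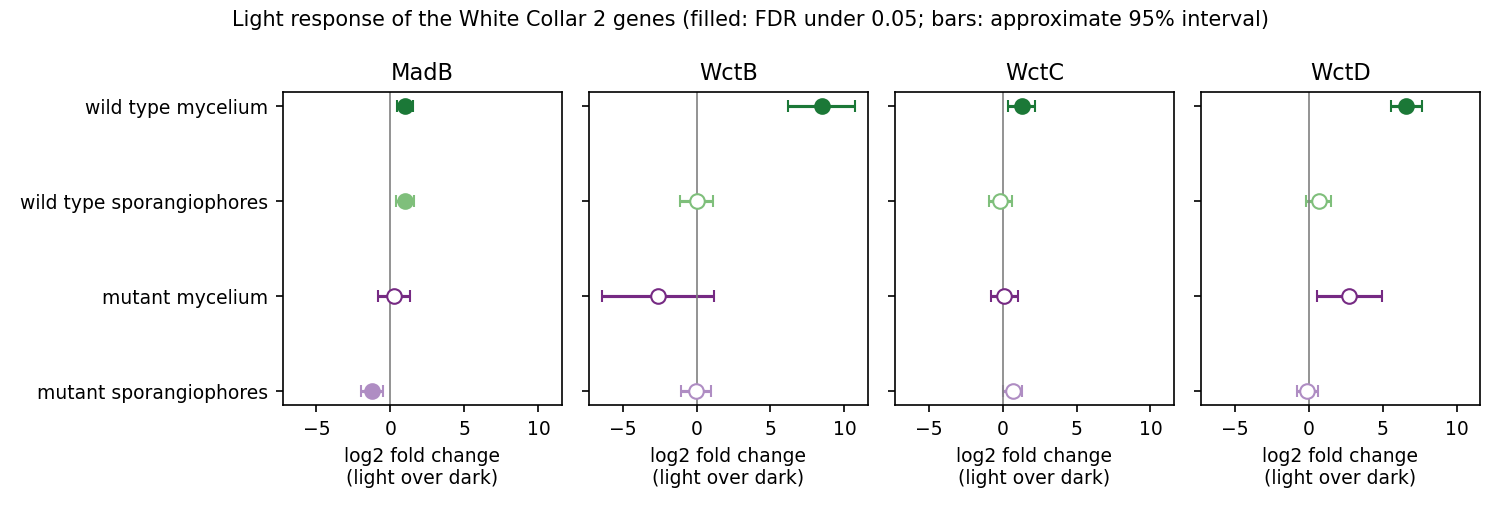
Log2 fold change of light over dark (x axis) for each White Collar 2 gene in the 4 comparisons (rows), with approximate 95% intervals as bars and filled points for an FDR under 0.05. WctB and WctD lie at 8.45 and 6.61 in wild type mycelium, far from their values in both sporangiophore comparisons, and MadB lies at 0.97 in wild type and -1.26 in mutant sporangiophores.

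The reads behind these genes differed. In the fit that the sporangiophore tables of both strains share with wild type mycelium, the average log2 CPM was 7.22 for MadB, 5.97 for WctD, 4.79 for WctC and 3.89 for WctB in the authors' deposited table, beside a median of 4.64 over all genes. In the separate fit of mutant mycelium these values were 7.42, 5.99, 4.65 and 3.67 in the authors' deposited table, beside a median of 4.42. WctB was thus the single member under the median of both fits. The values are not scaled to transcript length and are averaged over all libraries of a fit, so they give neither an order of levels among the genes nor a level in light or in dark.

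**Figure D2:**
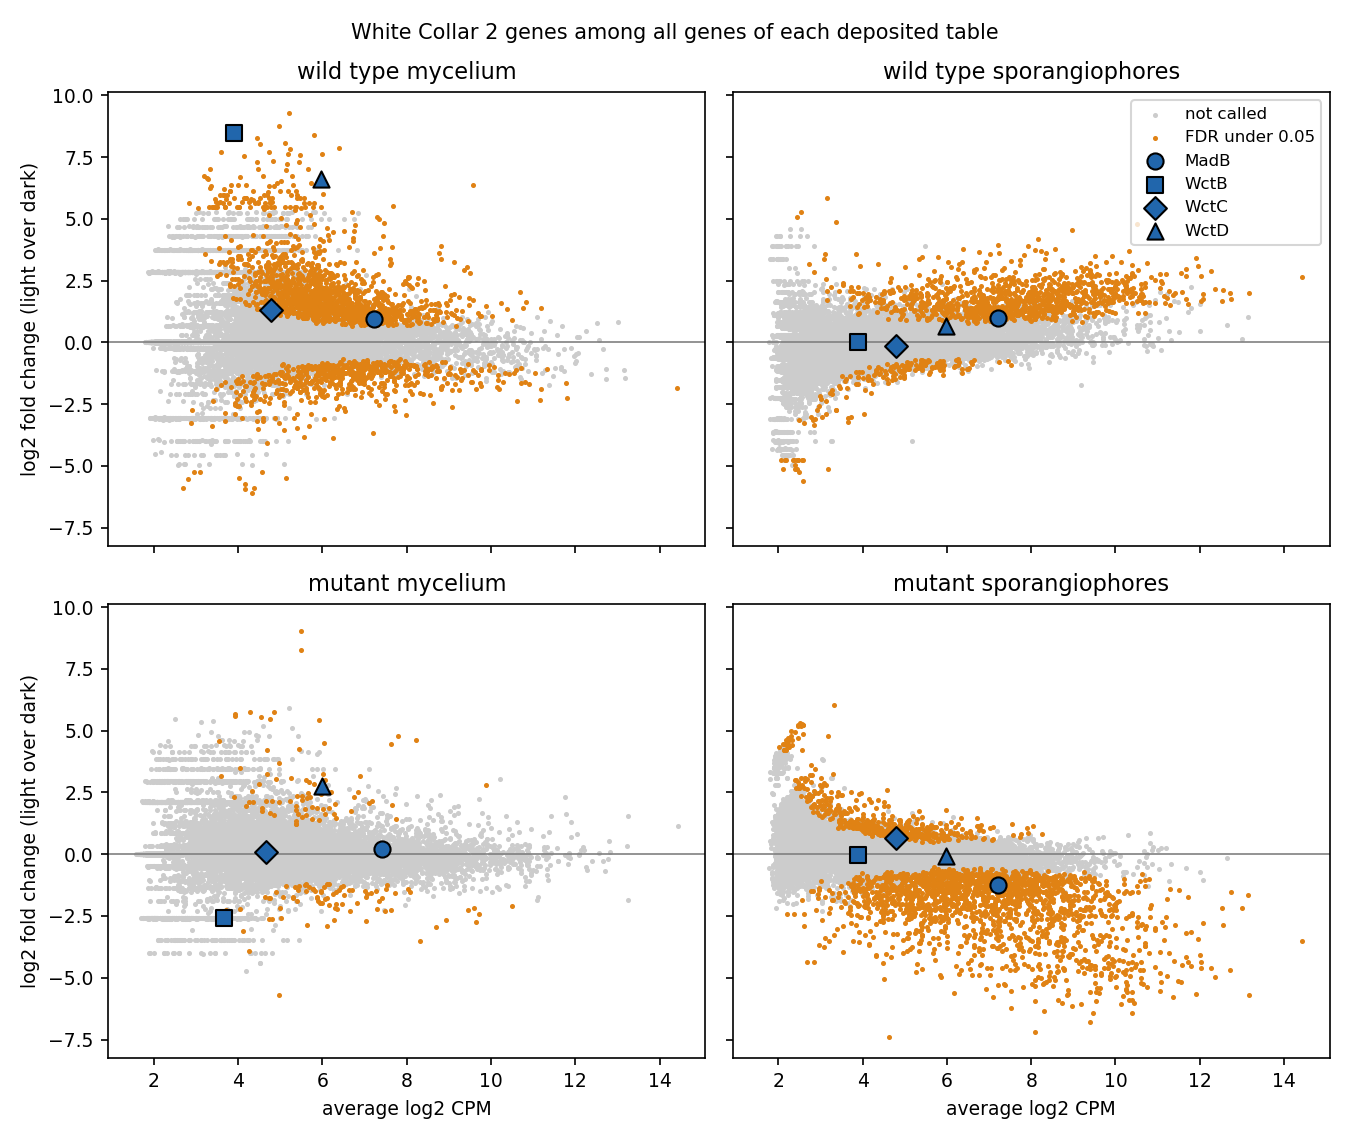
Log2 fold change of light over dark (y axis) against average log2 CPM (x axis) for every gene of the 4 deposited tables, orange where the FDR was under 0.05, with the White Collar 2 genes as large blue symbols. WctB and WctD stand near the top edge of the wild type mycelium panel, and WctB lies on one of the horizontal bands of equal folds in mutant mycelium.

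WctD had the lowest p-value of the family. It rose 97.6-fold in wild type mycelium in the authors' deposited table (log2 fold change 6.61, interval 5.54 to 7.68, FDR 1.3e-30, edgeR). By p-value it was number 10 of 14410 genes there, and by fold number 30. In wild type sporangiophores its log2 fold change was 0.68 (interval -0.14 to 1.50, FDR 0.414, edgeR) in the authors' deposited table. In mutant mycelium WctD had 2.76 in the authors' deposited table, with an interval of 0.55 to 4.97 that lies above 0, an unadjusted p of 0.0142 and an FDR of 0.309 by edgeR. In mutant sporangiophores it had -0.09 (interval -0.82 to 0.64, FDR 0.913, edgeR) in the authors' deposited table. The wild type mycelium interval of WctD overlaps none of the other 3.

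The light response of WctD differed between structures and between strains. Its log2 fold change in wild type mycelium exceeded that in wild type sporangiophores by 5.93 (interval 4.58 to 7.28, adjusted p = 1.1e-14 by an approximate normal test over 11213 genes). It exceeded that in mutant mycelium by 3.85 (interval 1.39 to 6.30, adjusted p = 0.0211 over 10462 genes by the same approximate test). The second difference sets folds of separate fits side by side, compares no levels, and no longer passed when a t distribution with 12 degrees of freedom was the reference (adjusted p = 0.0961). Between mutant mycelium and mutant sporangiophores the difference of 2.85 (interval 0.53 to 5.18) did not pass (adjusted p = 0.104, approximate normal test). Between the sporangiophores of both strains the difference was 0.77 (interval -0.33 to 1.87, adjusted p = 0.372).

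WctB had the largest fold of the family and the widest interval. In wild type mycelium its log2 fold change was 8.45 (interval 6.20 to 10.71, FDR 4.1e-11, edgeR) in the authors' deposited table, number 3 of 14410 genes by fold and number 77 by p-value. Its standard error of 1.15 was above the 0.55 of WctD. A fold of this size can stand for no reads in the dark, in which case it depends on the small count that edgeR adds and is no measure of the ratio. In wild type sporangiophores WctB had 0.02 (interval -1.10 to 1.14, FDR 0.990, edgeR) and in mutant sporangiophores -0.03 (interval -1.02 to 0.96, FDR 0.981, edgeR) in the authors' deposited table. Both sporangiophore intervals lie below the mycelial one.

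In mutant mycelium the authors' deposited table gives WctB a log2 fold of -2.60, with an interval of -6.40 to 1.21 and an FDR of 0.736 by edgeR. This value is shared, within 0.01, by 394 other genes of that table. The shared folds were described as a ladder after the values were examined. Its steps were set where the linear fold less 1 is a whole multiple of 1 unit, 5.06 for falling folds. The even spacing is thus a definition and no result. Within 0.01 of falling steps 1, 2 and 3 lay 395, 62 and 24 genes. Genes between steps were not counted, so whether folds gather on steps 2 and 3 was not tested. Whole reads in one condition with none in the other would give steps of this kind. WctB lay on falling step 1 (0.998 of a unit), which says only that it has that common fold. Whether it stands for 1 read in the dark and none in light was not tested, as counts were not analysed. WctD, at 1.72 units of the rising ladder of that table, lay on none of its steps.

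**Figure D3:**
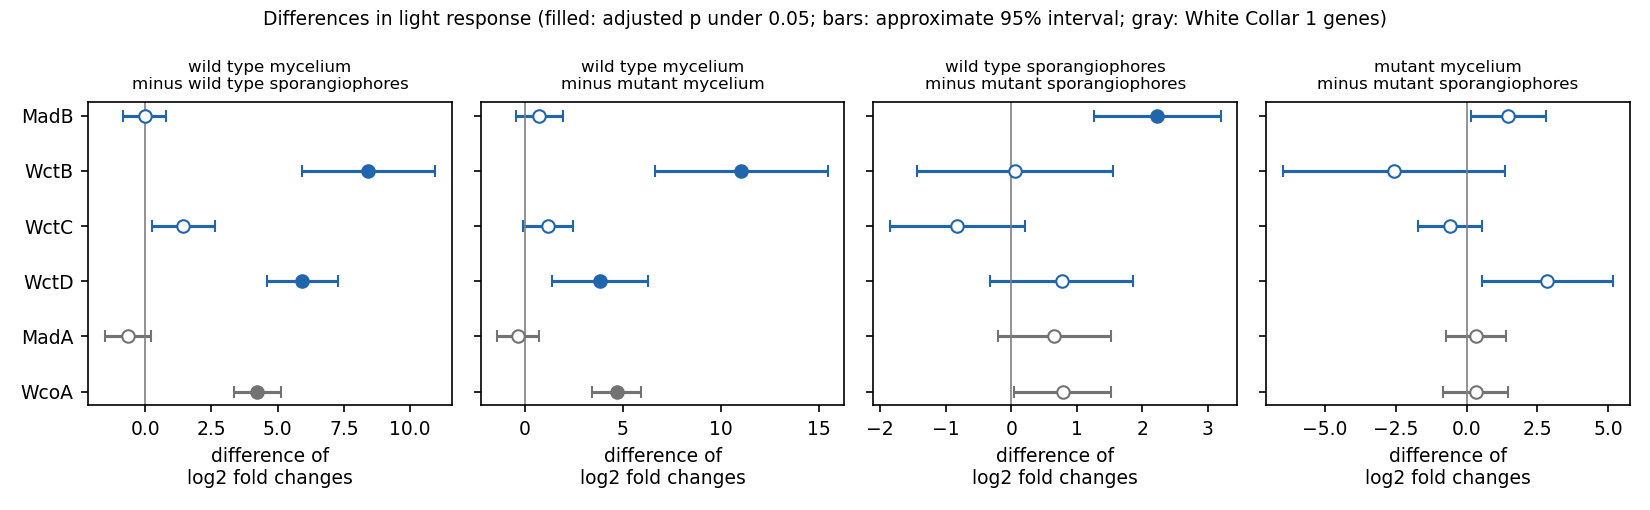
Difference of the log2 fold changes of light over dark between pairs of comparisons (x axis, first minus second as titled, with a scale of its own in each panel) for the White Collar 2 genes in blue and the White Collar 1 genes in gray, with approximate 95% intervals as bars and filled points for an adjusted p under 0.05. WctB, WctD and WcoA pass in both panels that involve wild type mycelium, and MadB passes between the sporangiophores of the 2 strains.

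The response of WctB in wild type mycelium exceeded that in wild type sporangiophores by 8.43 on the log2 scale (interval 5.91 to 10.95, adjusted p = 1.1e-08, approximate normal test). Against mutant mycelium the difference was 11.05 (interval 6.63 to 15.48, adjusted p = 5.9e-05 by the same test), with the mutant value resting on the single step described above. The approximation is poor where one condition has almost no reads, so the size of both differences is uncertain. Between the sporangiophores of both strains the difference was 0.05 (interval -1.44 to 1.55, adjusted p = 0.976), and between mutant mycelium and mutant sporangiophores -2.57 (interval -6.50 to 1.36, adjusted p = 0.481).

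WctC was called once. In wild type mycelium it rose 2.45-fold in the authors' deposited table (log2 fold change 1.30, interval 0.40 to 2.19, FDR 0.0359, edgeR). In wild type sporangiophores its log2 fold change was -0.14 (interval -0.93 to 0.64, FDR 0.907, edgeR) in the authors' deposited table. In mutant mycelium it was 0.10 (interval -0.81 to 1.01, FDR 1 by edgeR) in the authors' deposited table. In mutant sporangiophores it was 0.68 (interval 0.01 to 1.34, unadjusted p = 0.0460, FDR 0.184 by edgeR) in the authors' deposited table. None of the 4 differences tested for WctC passed, the nearest being 1.44 between mycelium and sporangiophores of the wild type (interval 0.25 to 2.63, adjusted p = 0.0769, approximate normal test). Against mutant mycelium its wild type response was higher by 1.19 (interval -0.08 to 2.47, adjusted p = 0.213), between the sporangiophores of both strains the difference was -0.82 (interval -1.85 to 0.21, adjusted p = 0.296), and between both mutant structures -0.57 (interval -1.70 to 0.55, adjusted p = 0.606). The mycelial call of WctC is thus not shown to be particular to that structure or to the wild type.

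MadB, the partner of MadA, had a similar fold in both structures of the wild type. In wild type mycelium it rose 1.94-fold in the authors' deposited table (log2 fold change 0.96, interval 0.42 to 1.49, FDR 0.0061, edgeR). In wild type sporangiophores it rose 1.96-fold in the authors' deposited table (log2 fold change 0.97, interval 0.37 to 1.57, FDR 0.0249, edgeR). The difference between these structures was -0.01 with an interval of -0.82 to 0.79 (adjusted p = 0.986, approximate normal test). In mutant mycelium MadB had 0.21 (interval -0.87 to 1.29, FDR 1 by edgeR) in the authors' deposited table, a difference of 0.75 from wild type mycelium (interval -0.46 to 1.96, adjusted p = 0.438). In mutant sporangiophores it fell 2.40-fold in the authors' deposited table (log2 fold change -1.26, interval -2.02 to -0.51, FDR 0.0092, edgeR).

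The opposite calls of MadB in the sporangiophores of the 2 strains differed by 2.23 (interval 1.27 to 3.20, adjusted p = 7.3e-05, approximate normal test over 14401 genes). Over all genes, 14% had a wild type fold above the mutant fold by that test and 5.55% one below it. Mutant mycelium and mutant sporangiophores differed by 1.47 for MadB, which did not pass (interval 0.15 to 2.79, adjusted p = 0.153). Folds moved with expression level in both sporangiophore tables, and at the average log2 CPM of MadB the trend over all genes was 0.43 in the wild type and -0.44 in the mutant. With that trend taken out MadB had 0.54 (adjusted p = 0.394) and -0.83 (adjusted p = 0.147), and neither call held, while their difference did (1.36, adjusted p = 0.0346). The sign of the difference rests on the titles of the tables, which give the direction.

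By the test of differences, 2 of the 4 genes, WctB and WctD, responded more in wild type mycelium than in wild type sporangiophores, and 0 less, beside 9.44% and 10.5% of all genes. The same 2 responded more in wild type than in mutant mycelium, and 0 less, beside 10.1% and 4.37% of all genes. For mutant mycelium against mutant sporangiophores 0 of the 4 passed by the approximate normal test, beside 10.4% of all genes above and 1.49% below, and 2 (MadB and WctD) had an unadjusted p under 0.05.

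The White Collar 1 genes give the setting of these responses. WcoA, a White Collar 1 relative, had log2 folds of 5.28 and 1.04 in mycelium and sporangiophores of the wild type and of 0.58 and 0.26 in those of the mutant in the authors' deposited tables, beside 6.61, 0.68, 2.76 and -0.09 for WctD. WcoA was called in wild type sporangiophores (FDR 0.0033, edgeR), where WctD was not (FDR 0.414), in the authors' deposited table. Its response in wild type mycelium exceeded that in wild type sporangiophores by 4.24 (interval 3.35 to 5.12, adjusted p = 1.5e-17) and that in mutant mycelium by 4.70 (interval 3.44 to 5.96, adjusted p = 1.3e-10, approximate normal tests). MadA, the partner of MadB, was not called in any of the authors' deposited tables, with log2 fold changes between -0.63 and 0.02. In wild type mycelium MadA had -0.63 (interval -1.23 to -0.04, unadjusted p = 0.0364, FDR 0.166 by edgeR). In mutant sporangiophores MadA also had -0.63 (interval -1.21 to -0.05, unadjusted p = 0.0329, FDR 0.146 by edgeR). Its intervals in the other comparisons held 0. For MadA, none of the 4 differences passed, with adjusted p from 0.307 to 0.768. In both mutant tables MadA and MadB had folds other than 0 with standard errors between 0.30 and 0.55, so transcripts of both genes were counted in the mutant. Their levels in mutant and wild type could not be compared from folds.

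Carotene synthesis is a known light-regulated output of MadA and MadB, and its genes did not follow one direction. Of 7 carotene and isoprenoid genes with a symbol, 1 was called higher and 2 lower in wild type mycelium, 1 higher and 0 lower in wild type sporangiophores, 0 higher and 3 lower in mutant mycelium, and 0 in mutant sporangiophores in the authors' deposited table (edgeR, where 0 had an unadjusted p under 0.05). Of all genes, 9.86% were called higher and 4.18% lower in the first of these, 7.23% and 1.18% in the second, 0.541% and 0.576% in the third, and 3.31% and 12.3% in the last. carC had 2.45 in wild type mycelium and 2.82 in wild type sporangiophores in the authors' deposited table, both called higher, as MadB was in these structures. CarB, which encodes phytoene dehydrogenase, had -0.13 in wild type mycelium, where the White Collar 2 genes were called higher, and -2.65 in mutant mycelium in the authors' deposited table, where only the latter was called. CarRA, which encodes the bifunctional lycopene cyclase and phytoene synthase, had 0.38 and -2.28 in the same authors' deposited tables, again with only the latter called. CarG2 was called lower in both, with -3.86 and -2.07, and carRA2 was called lower in wild type mycelium with -1.13 in the authors' deposited tables. hmgR and ippI/dmappS were called in none of the 4. The 7 had median log2 fold changes of -0.13 and -0.0051 in mycelium and sporangiophores of the wild type and of -1.04 and 0.094 in those of the mutant, beside 3.95, 0.35, 0.16 and -0.06 for the White Collar 2 genes. The cryptochrome and RAS GTPase activating protein entries of the list, and CarS and carD among its carotene entries, were not matched by symbol and were not analysed here.

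Genes with similar folds were sought over the 4 comparisons by Euclidean distance among 10459 genes, 205 of them with symbols. WctD lay nearest to Gpb3, named as a beta subunit of heterotrimeric G proteins, at a distance of 1.39, and Gpb3 was number 4 of all genes. Gpb3 had log2 fold changes of 6.73, 0.25, 1.48 and 0.21 in wild type mycelium, wild type sporangiophores, mutant mycelium and mutant sporangiophores in the authors' deposited tables. WcoA, at 2.61, and PkaR4, named as a cAMP-dependent kinase regulatory subunit, at 2.63, followed for WctD. PkaR4 was not called in mycelium of the wild type (4.29, FDR 0.226) or of the mutant (3.85, FDR 0.531), and both folds lay within 0.01 of a step of the ladders. There were 68 genes of any kind nearer to WctD than WcoA was. For WctB the nearest with symbols were PPK2 at 3.69, Gpb3 at 4.44 and WcoA at 4.61. All distances from WctB rest on its folds of 8.45 and -2.60 in mycelium, the second of which lies on a step of the ladder. By the same measure PHYBLDRAFT_122815 (1.46) and PHYBLDRAFT_108764 (1.96) were nearer among genes of at least the median log2 CPM. Among those, PHYBLDRAFT_179746 was the nearest to WctD at 1.31. In wild type mycelium Gpb3 (6.73), PPK2 (5.82) and PHYBLDRAFT_122815 (8.40) were called higher. Their folds there also lay within 0.01 of a step of the ladder. WctB lay at 56.48 units and WctD at 15.60 units of that ladder, neither a whole number. Steps lie closer together at such large folds, and what these folds stand for was not tested.

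For MadB the nearest symbols were Ndufs3, a subunit of respiratory complex I by its symbol, at 0.51, ATP16_2, an ATP synthase subunit by its symbol, at 0.72, and PbCsb, a citrate synthase by its symbol, at 0.75. Ndufs3 had 0.49, 1.14, 0.18 and -1.38 in the 4 comparisons in the authors' deposited tables. Ndufs3 (FDR 0.367, edgeR) and PbCsb (FDR 0.157) were not called in wild type mycelium, nor ATP16_2 (FDR 0.131) in wild type sporangiophores. PHYBLDRAFT_76441 (0.22) and PHYBLDRAFT_128992 (0.23) were nearer still to MadB. WctC lay nearest to the kinase genes ARK1 at 0.36, PKC4 at 0.53 and pkaC2 at 0.67, and to PHYBLDRAFT_139620 and PHYBLDRAFT_179691, both at 0.18. ARK1 and PKC4 were called in none of the 4 comparisons, and pkaC2 in wild type mycelium alone. Small folds lie close together for many genes, and 20 genes of any kind were nearer to MadB than Ndufs3 and 22 nearer to WctC than ARK1. Among the White Collar 2 genes themselves the distances ran from 2.26 between MadB and WctC to 8.15 between MadB and WctB.

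**Figure D4:**
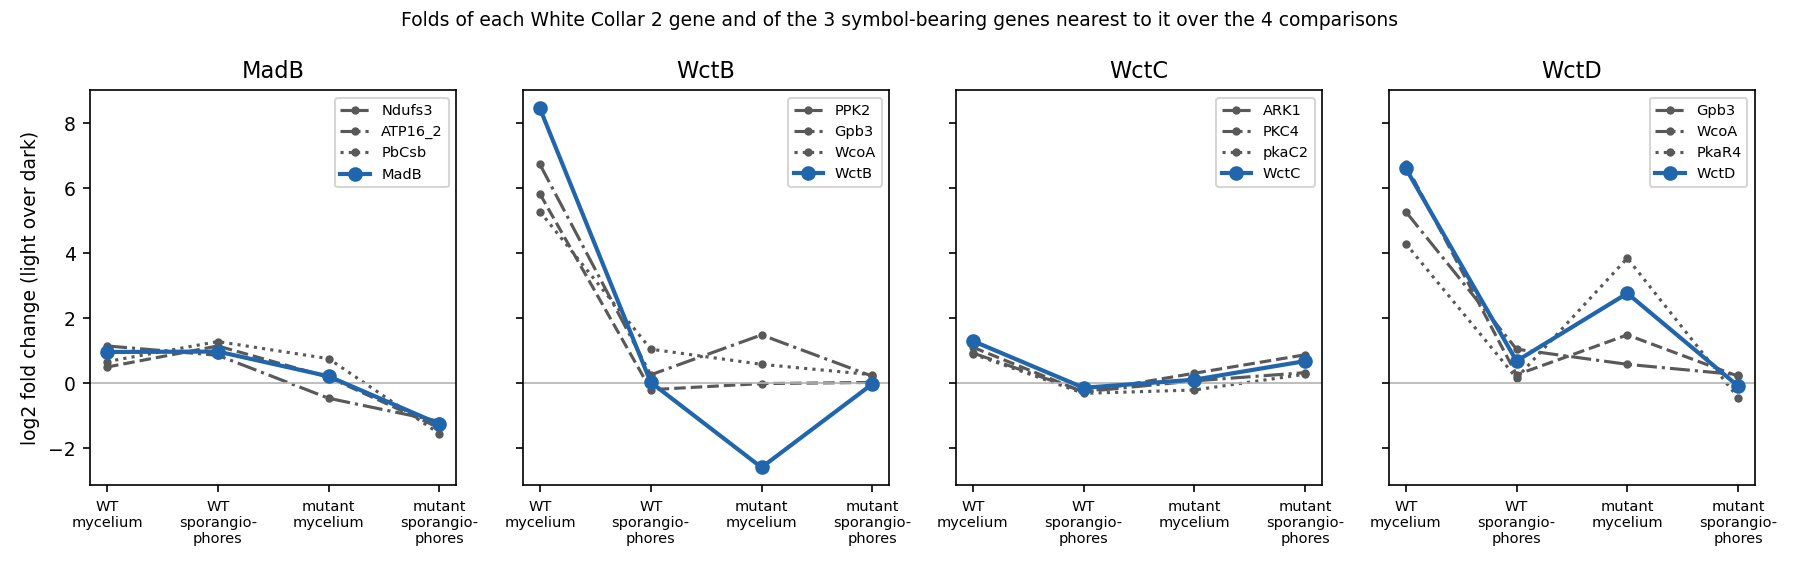
Log2 fold change of light over dark (y axis) in the 4 comparisons (x axis, WT for wild type) for each White Collar 2 gene in blue and the 3 symbol-bearing genes nearest to it in gray, joined by lines for reading only. The profile of WctD runs close to that of Gpb3 except in mutant mycelium (2.76 against 1.48), and that of MadB close to Ndufs3, falling from 0.97 in wild type to -1.26 in mutant sporangiophores.

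Scaling touches the smaller calls. The median of all folds other than 0 was 0.39 in wild type mycelium, and relative to it MadB had 0.57 (adjusted p = 0.169) and WctC 0.91 (adjusted p = 0.198), no longer called, while WctD and WctB were. With folds so centred, 828 genes of that table were higher and 1235 lower, in place of 1421 and 603 in the authors' deposited table. The likelihood ratio was also referred to an F distribution with 12 degrees of freedom, which allows for a dispersion estimated from few libraries. The calls of MadB (adjusted p = 0.0579) and WctC (0.118) then ended in wild type mycelium. Those of MadB ended in wild type (0.128) and mutant (0.0590) sporangiophores. Calls fell over all genes too, to 756 higher and 241 lower in wild type mycelium. They fell to 476 and 6 in wild type sporangiophores and to 130 and 1384 in mutant sporangiophores. The 12 are the 20 kept libraries less 8 groups, as for 1 fit of all groups. Mutant mycelium came from another fit, so each fit may have had fewer, and 12 may be too lenient for the F and t references.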

How the data were processed

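Per the labels' protocols, RNA was extracted with Trizol and amplified with the Message Amp-II kit. Per the submitters' processing notes, Bowtie and edgeR were used, in versions that are not recorded. The sources used here do not give the build, annotation or counting. The authors deposited, per the file headers, log2 folds, average log2 CPM, a likelihood ratio (a score), a p-value and an FDR. Each p-value equals the upper tail of a chi-square distribution with 1 degree of freedom, and each FDR the Benjamini-Hochberg value over the table. All 14410 average log2 CPM values are identical in 3 tables, and 0 in mutant mycelium equal them, so that table came from another fit. Row IDs were matched to the number in the PHYBLDRAFT locus tags of Phybl2 (14435 of 14490, 99.6%), 208 with symbols. No coordinates or lengths were used.

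The planned count test needed counts, so the authors' FDR under 0.05 was used, as planned for that case. Differences between tables were tested as the difference of log2 folds over the root of the summed squared standard errors, two-sided, and Benjamini-Hochberg adjusted over all genes with a standard error in both (Python 3.11.15, scipy 1.17.1, statsmodels 0.14.6). Alternatives were F or t references, centring, a lowess trend on log2 CPM (fraction 0.3), FDR under 0.01, a log2 fold of at least 1, and genes of at least median log2 CPM. The series text calls the replicates biological without saying how cultures were kept apart, and p-values measure the spread between the kept libraries.

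The genes and lists were chosen with earlier results of these data known. Genes named were the 4 White Collar 2 genes, both White Collar 1 genes, the called genes of a light pathway list, and for each White Collar 2 gene the 3 nearest genes with a symbol and the 2 nearest of at least median log2 CPM, by Euclidean distance over 4 folds. Named uncalled carotene genes, and the symbols sharing the calls of MadB, were chosen after their values were seen.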

Additional observations from a re-analysis of the deposited data

Results flagged for a closer look

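Among the White Collar 2 genes, 5 differences in light response between comparisons passed the approximate normal test of the difference itself. Between wild type mycelium and wild type sporangiophores, the log2 fold change of WctB differed by 8.43 and that of WctD by 5.93. Of all genes, 9.44% had the first fold above the second by that test and 10.5% had it below. Between wild type and mutant mycelium, WctB differed by 11.05, against a mutant value on the lowest step of the fold ladder, and WctD by 3.85. The shares of all genes were 10.1% above and 4.37% below. The difference of WctD did not pass with a t reference of 12 degrees of freedom (adjusted p = 0.0961). Between wild type and mutant sporangiophores, MadB differed by 2.23, with a call in each strain in opposite directions. The shares of all genes were 14% above and 5.55% below. Neither call of MadB held with the trend on log2 CPM taken out (adjusted p = 0.394 and 0.147). With an F reference of 12 degrees of freedom neither held (0.128 and 0.0590). The difference held with the trend taken out (1.36, adjusted p = 0.0346).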

How the results depend on the processing

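No paired analysis was possible because the tables hold comparisons and no values per library, and for the same reason no replicate could be left out. Wild type mycelium had 4 called White Collar 2 genes. The F reference of 12 degrees of freedom left 2, and so did centring (WctD and WctB). There were 3 with the trend taken out (WctC lost, 0.76, adjusted p = 0.304), at an FDR under 0.01 (WctC lost) and with a log2 fold of at least 1 (MadB lost). Of all genes, 1421 higher and 603 lower there became 756 and 241 with that F reference and 828 and 1235 after centring. With the trend taken out they were 928 and 1276. At an FDR under 0.01 they were 920 and 332, and with a log2 fold of at least 1 they were 1292 and 496. MadB in wild type sporangiophores (1 called) gave 0 with that F reference, with the trend taken out, at an FDR under 0.01 and with a log2 fold of at least 1. Of all genes, 1042 higher and 170 lower there became, in that order, 476 and 6, 405 and 223, 705 and 31, 992 and 115. Mutant sporangiophores (1 called) gave 0 with that F reference and with the trend taken out. Of all genes, 477 higher and 1779 lower there became 130 and 1384 with the first and 637 and 1374 with the second. With the degrees of freedom of the 2 groups alone (2 to 4), 0 genes of any table were called, so this reference says nothing on single genes. For differences, the 2 genes of wild type mycelium against wild type sporangiophores became 1 among genes of at least median log2 CPM, where WctB is not tested. Of all genes, 1059 above and 1174 below there became 1001 and 1172. The 2 members of wild type against mutant mycelium became 1 with a t reference of 12 degrees of freedom, at an adjusted p under 0.01 and among genes of at least median log2 CPM. Of all genes, 1055 above and 457 below there became, in that order, 408 and 78, 591 and 186, 959 and 400. With the degrees of freedom of the 4 groups alone both counts of members became 0, but so did those of all 11213 and 10462 genes tested, so this reference says nothing on the members there. The 1 of the sporangiophores of both strains also became 0 with it (adjusted p = 0.0788 for MadB), where 838 genes above and 6 below 0 still passed. With the trend taken out, WctC in mutant mycelium turned to -0.066 and the MadB difference between wild type structures to 0.24, neither past the test. The other causes were not tested. Over the 11 called folds and differences of single genes, 16 of 59 alternative values lost the call and 43 kept it, leaving out 10 values from references under which 0 genes passed.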

Other observations

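The calls of MadB (higher in both wild type structures, not called in mutant mycelium, lower in mutant sporangiophores) were shared by 68 of 14162 genes listed in all 4 tables, itself included. Of these, 7 had symbols, and beside MadB they were COX4_2, Hpt_2, NDE2, NDUFS7, QCR1_2 and SDH1, with no list or test behind them. The calls of WctB, WctC and WctD (higher in wild type mycelium and not called elsewhere) were shared by 1101 genes, 7.77% of those in all tables. In the mycelium tables, the lowest rising step of the fold ladder held 811 genes in the wild type and 636 in the mutant. The lowest falling step held 234 and 395. Whether such folds of mycelium beyond 2 on the log2 scale stand for a single read was not tested.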
